A study of Mus musculus with 9 samples.

Results

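The interferon regulatory factors are transcription factors that share a DNA-binding domain and bind interferon-stimulated response elements, the short sequences that switch on antiviral and inflammatory genes. The 8 members described here, Irf1, Irf2, Irf3, Irf4, Irf5, Irf7, Irf8 and Irf9, were taken by gene symbol from a liver RNA-seq table of 24008 genes. All 8 had enough reads to be among the 14379 genes tested. Irf1 and Irf2 bind the same elements, with Irf1 mostly an activator and Irf2 mostly its antagonist. Irf3 and Irf7 carry signals from nucleic acid sensors to the interferon genes, and Irf9 is the DNA-binding part of ISGF3, the complex that answers type I interferon. Irf5, Irf8 and Irf4 are best known from immune cells: Irf5 acts downstream of Toll-like receptors in macrophages, Irf8 directs the development of monocytes and dendritic cells, and Irf4 acts in B cells, plasma cells, T cells and macrophages.

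Livers came from 9 male C57BL/6J mice, 3 per group, each sequenced as 1 library. All mice were on a high-fat, high-carbohydrate diet that induces nonalcoholic steatohepatitis (NASH). The Flox group, labelled WT, carried floxed Irf4 alleles without Cre and served as the control. F4MKO mice lacked Irf4 in skeletal muscle through a Cre driven by the Myl1 promoter, which is active in muscle fibres. F4MKO+FSTL1 mice had the same deletion and received an AAV8 vector in the gastrocnemius that expressed the secreted protein FSTL1, tagged with Flag, from the muscle creatine kinase promoter. By the study's methods the Flox and F4MKO mice received AAV-GFP, which the labels do not mention. The mice were 8 weeks old at the start and were killed 4 weeks after the injection, and the methods give both 24 and 12 weeks of diet before it. The comparison of F4MKO with Flox asks what loss of muscle Irf4 changes in the liver, and that of F4MKO+FSTL1 with F4MKO asks what muscle FSTL1 adds to it. Both share the F4MKO libraries, and the comparison of F4MKO+FSTL1 with Flox shares libraries with each.

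The table gives a read count for every gene and library, and 20656976 to 24322984 reads were counted per library. Levels are CPM, counts scaled to a common library size, after TMM normalization, a scaling that brings most genes to the same level in every library. The TMM factors ran from 0.927 to 0.955 in F4MKO+FSTL1, from 0.969 to 1.02 in Flox and from 1.03 to 1.17 in F4MKO libraries, with the highest in replicate 1. A gene was called differentially expressed at an adjusted p under 0.05 by edgeR's quasi-likelihood test (Benjamini-Hochberg over all genes tested) with a fold change above 1.5. The hepatocyte genes Alb, Apoa1 and Ttr were abundant in every library, with 1063714 to 1799972 reads on Alb, as the labelled tissue requires. A single library stood apart in a member itself. Replicate 1 of F4MKO+FSTL1 had 10 reads on Irf4, against 92 to 132 in the other 8, whereas the labels place the deletion in skeletal muscle. The changes of Irf2, Irf8 and Irf4 in F4MKO+FSTL1 compared with F4MKO are given with and without this library below. Other results include it unless stated.

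The promoters of the members are shown only where they held a recognition sequence of the pathway. Interferon can induce Irf1, Irf2 and Irf8, but also Irf7, whose searched promoter held no match. RefSeq (GRCm38.p6) gave 11 start sites for the 8 members, and the 250 bases before each were searched on both strands for the interferon-stimulated response element (ISRE, GAAA and GAAA spaced by 2 bases), the interferon-gamma-activated site (GAS, TTC and GAA spaced by 3 bases, which reads alike on both strands) and the composite element bound by an IRF with an Ets factor (EICE, GGAA and GAAA spaced by 2 bases). Matches were found in 3 of the 11 windows. Over the 32851 windows of all genes, 2.98% held the ISRE, 7.02% the GAS and 2.3% the EICE. A match is a description of letters, and binding was not measured. Capitals mark the matches.
Irf1, chr11:53769764-53770013 (+ strand), GAS 90 to 82 bases before the start.
Irf1 promoter: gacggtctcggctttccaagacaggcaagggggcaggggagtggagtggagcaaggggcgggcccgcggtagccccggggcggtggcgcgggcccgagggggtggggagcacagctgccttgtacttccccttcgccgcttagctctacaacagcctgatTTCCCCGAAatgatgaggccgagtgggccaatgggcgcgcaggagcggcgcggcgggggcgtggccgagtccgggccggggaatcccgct
Irf2, chr8:46739495-46739744 (+ strand), EICE 247 to 238, ISRE 241 to 232 and GAS 224 to 216 bases before the start. The EICE and the ISRE overlap and print as a single run of capitals.
Irf2 promoter: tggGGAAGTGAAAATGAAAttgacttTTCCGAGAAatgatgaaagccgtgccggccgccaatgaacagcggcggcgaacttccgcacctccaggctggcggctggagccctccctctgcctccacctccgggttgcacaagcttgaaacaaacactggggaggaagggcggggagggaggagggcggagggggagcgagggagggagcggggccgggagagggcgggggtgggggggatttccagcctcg
Irf8, chr8:120736108-120736357 (+ strand), GAS 171 to 163 and 153 to 145 bases before the start.
Irf8 promoter: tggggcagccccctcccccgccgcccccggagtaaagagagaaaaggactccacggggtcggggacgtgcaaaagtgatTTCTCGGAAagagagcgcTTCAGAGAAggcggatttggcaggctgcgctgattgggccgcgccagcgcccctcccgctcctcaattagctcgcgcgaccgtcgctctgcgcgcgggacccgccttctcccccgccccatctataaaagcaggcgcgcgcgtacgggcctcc
The windows of Irf3, Irf4, Irf5, Irf7 and Irf9, and the downstream start sites of Irf1 and Irf8, held none of these letters.

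Levels between genes were compared per kilobase of annotated exon (CPM per kb, GENCODE vM21), which counts the exons of all transcripts of a gene. In Flox livers Irf3 stood highest with 23.6 ± 2.18 CPM per kb (SD, n = 3), followed by Irf7 with 20.6 ± 6.03. Their libraries overlapped. Irf2 (9.68 ± 0.643), Irf1 (8.28 ± 0.638) and Irf9 (7.71 ± 0.649) formed a middle group, in which Irf1 and Irf9 overlapped and Irf2 lay just above Irf1 (lowest 9.02 against highest 9.01). Irf5 (3.92 ± 0.819), Irf8 (1.63 ± 0.252) and Irf4 (1.07 ± 0.142) were lowest, and none of these neighbours overlapped. In F4MKO livers Irf3 (18.9 ± 0.720) and Irf7 (17.8 ± 5.64) overlapped again. In F4MKO+FSTL1 livers Irf3 kept its place with 24.4 ± 0.901 CPM per kb, whereas Irf2 with 13.3 ± 0.471 stood beside Irf7 with 11.03 ± 2.85, and the libraries of Irf2 and Irf7 overlapped.

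**Figure D1:**
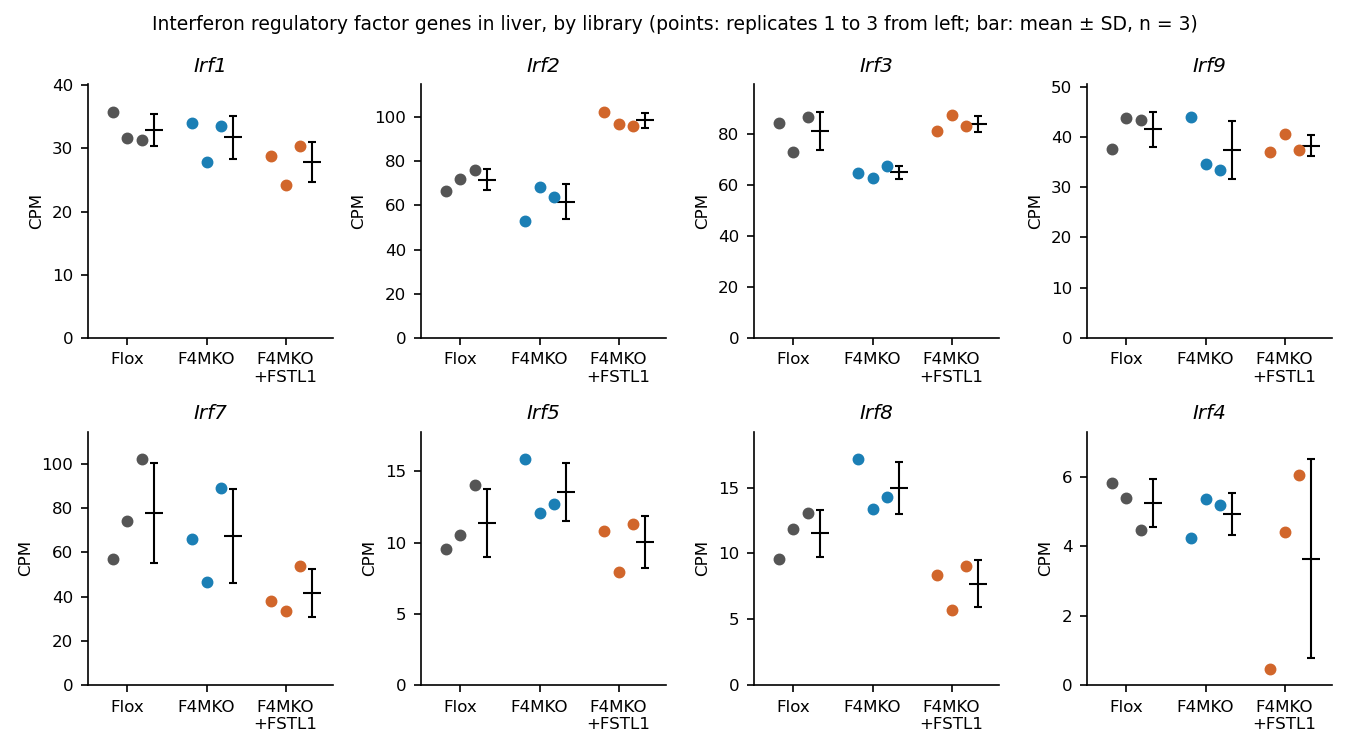
CPM of each member (y axes, from 0) in the 9 liver libraries, with replicates 1 to 3 from left to right in each group and the mean ± SD (n = 3) beside them. The 3 F4MKO+FSTL1 libraries lie above all others for Irf2 (96.2 to 103 CPM) and below all others for Irf8 (5.67 to 9.04 CPM), and 1 of them is near 0 for Irf4.

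Irf2 was higher and Irf8 lower in F4MKO+FSTL1 than in F4MKO livers, and no member was called in the other comparisons. Of the 8 members, 2 were called in F4MKO+FSTL1 compared with F4MKO, where 14.4% of all tested genes were called. This count is near the background and is no result about the family. By direction 1 of 8 rose (background 3.21%) and 1 of 8 fell (background 11.2%), and 5 of 8 had an unadjusted p under 0.05 (background 35.3%). Of the 8 members, 0 were called in F4MKO compared with Flox by edgeR (background 0.271%), and 1 had an unadjusted p under 0.05 (background 16.9%). Again 0 were called in F4MKO+FSTL1 compared with Flox by edgeR (background 0.00695%), and 3 had an unadjusted p under 0.05 (background 13.4%). With DESeq2 0 members were called in F4MKO against Flox, 3 in F4MKO+FSTL1 against F4MKO and 1 in F4MKO+FSTL1 against Flox. The added member was Irf7 each time. Over all genes DESeq2 called 338, 2127 and 284 in the same order. Over the 8 members the median of the log2 fold changes was -0.12, -0.31 and -0.21 in these comparisons, and over all tested genes it was -0.0030, 0.011 and -0.00038.

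**Figure D2:**
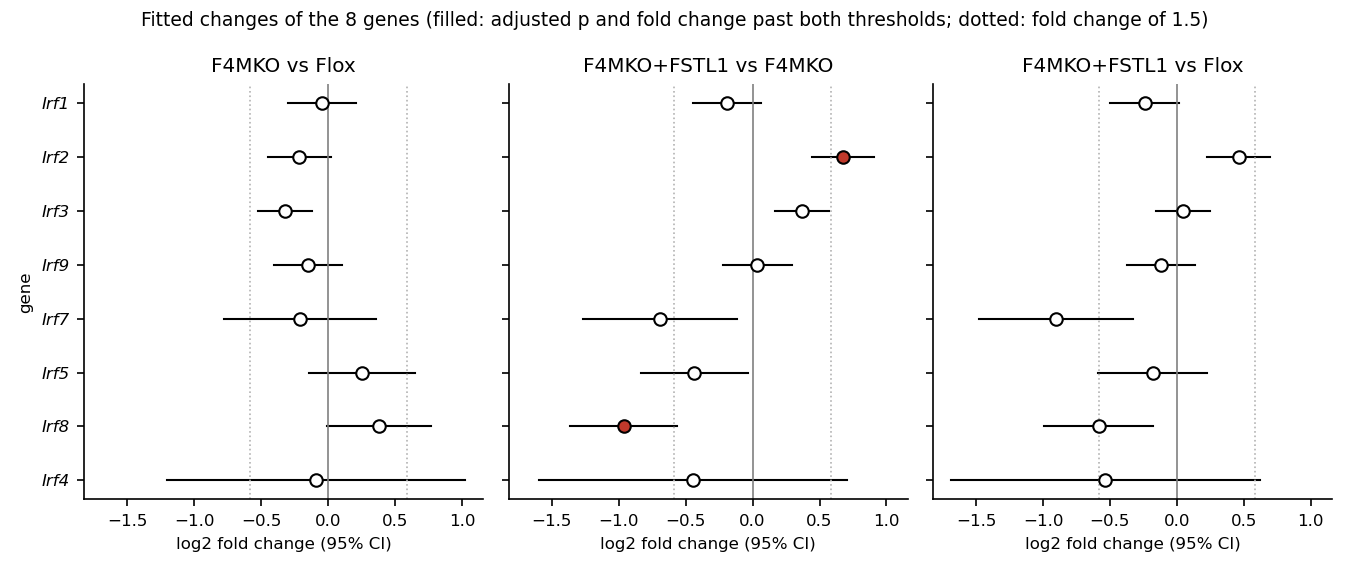
Fitted log2 fold change (x axis) of each member with its 95% confidence interval in the 3 comparisons, with dotted lines at a fold change of 1.5. Filled circles mark Irf2 and Irf8, called in F4MKO+FSTL1 compared with F4MKO. The interval of Irf4 is the widest in each comparison.

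Irf1, the activator induced by interferon-gamma, was not called in any comparison. It measured 35.8, 31.6 and 31.3 CPM in the Flox libraries, 34.0, 27.8 and 33.5 in F4MKO and 28.9, 24.3 and 30.4 in F4MKO+FSTL1. The F4MKO libraries overlapped with both other groups, and those of F4MKO+FSTL1 lay just below Flox. The log2 fold change of F4MKO+FSTL1 compared with Flox was -0.24 (95% interval -0.50 to 0.015, adjusted p = 0.408 by edgeR with Benjamini-Hochberg adjustment). Compared with F4MKO it was -0.19 (95% interval -0.45 to 0.065, adjusted p = 0.268 by the same test). With counts scaled to library totals this value was -0.39 with an adjusted p of 0.0499, still under the fold threshold.

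Irf2, which competes with Irf1 for the same sites, measured 66.7, 71.8 and 76.2 CPM in Flox, 52.8, 68.4 and 63.9 in F4MKO and 103, 96.9 and 96.2 in F4MKO+FSTL1 libraries. Every F4MKO+FSTL1 library was above every other library, and Flox and F4MKO overlapped. Irf2 was 1.60-fold higher in F4MKO+FSTL1 (98.5 ± 3.48 CPM, SD, n = 3) than in F4MKO livers (61.7 ± 8.04) (log2 fold change 0.68, standard error 0.11, 95% interval 0.44 to 0.91, adjusted p = 0.00228 by edgeR with Benjamini-Hochberg adjustment). Without F4MKO+FSTL1 replicate 1 it was 0.65 (adjusted p = 0.00894 by the same test). The call sat close to the fold threshold of 0.58 on the log2 scale. Without F4MKO replicate 1, the library with the highest TMM factor, the log2 fold change was 0.57 (adjusted p = 0.00838) and the call was lost on fold, as it was at 0.49 when counts were scaled to library totals without TMM (adjusted p = 0.00412). The same F4MKO library had the lowest summed level of 10 hepatocyte markers, 70399 CPM against 85224 to 103098 in the other 8, and the lowest Irf2. Both levels were divided by its TMM factor of 1.17, and the part of this scaling in their joint low was not tested. Over the 9 libraries the deviations of Irf2 from its group means correlated with those of the summed hepatocyte markers (r = 0.80). They also correlated with those of the summed B and plasma cell markers, Sdc1 included (r = 0.74). With the group means left in, r was 0.38 and -0.50. The hepatocyte sum had means of 99477 CPM in Flox, 90708 in F4MKO and 94830 in F4MKO+FSTL1, so it was not highest where Irf2 was. Alb had the most reads of its markers in every library. The B and plasma cell sum was mostly Sdc1, a gene that hepatocytes also express, with a mean of 143 CPM in Flox and 19.3 without Sdc1. The part of these markers in the result was not tested. Compared with Flox, the log2 fold change of Irf2 in F4MKO+FSTL1 was 0.46, with an adjusted p of 0.113. Irf2 spans chr8:46739732-46847458 (GRCm38), where antisense genes overlap it, and the strand setting of the counting is not given in the sources used here.

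The ratio of Irf1 to Irf2 reads within a library does not depend on scaling between libraries. It was 0.410 to 0.537 in Flox, 0.407 to 0.645 in F4MKO and 0.2505 to 0.317 in F4MKO+FSTL1 libraries, so that the F4MKO+FSTL1 libraries lay below all others. The two-sided exact permutation test on the log2 ratio gave p = 0.1 for F4MKO+FSTL1 against F4MKO and against Flox (n = 3 per group), the smallest p that 3 against 3 can give, and 0.15 after Benjamini-Hochberg adjustment over 6 such tests. Flox and F4MKO overlapped (exact p = 0.7). This ratio was chosen after the values of its genes were seen.

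Irf3, the constitutive factor that the kinase Tbk1 activates, measured 84.4, 72.8 and 86.8 CPM in Flox, 64.6, 62.6 and 67.5 in F4MKO and 81.2, 87.3 and 83.1 in F4MKO+FSTL1 libraries. The F4MKO libraries were below all others, and those of Flox and F4MKO+FSTL1 overlapped. In F4MKO compared with Flox the log2 fold change was -0.33 (95% interval -0.53 to -0.12, adjusted p = 0.124 by edgeR with Benjamini-Hochberg adjustment), the smallest p of a member in that comparison. In F4MKO+FSTL1 compared with F4MKO it was 0.37 (95% interval 0.17 to 0.57, adjusted p = 0.0166), past the threshold on p but not on fold, and 0.18 (adjusted p = 0.227) with counts scaled to library totals. Counted on adjusted p alone, 3 members passed in this comparison (background 20.9%). Both comparisons share the F4MKO libraries. Irf3 lies at chr7:44997648-45002848, and Bcl2l12 overlaps 1065 bases of it on the opposite strand.

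Irf7, the interferon-inducible factor that amplifies type I interferon, spread most among the replicates of the abundant members. It measured 57.1, 74.0 and 102 CPM in Flox, 66.0, 46.7 and 89.2 in F4MKO and 37.9, 33.3 and 53.8 in F4MKO+FSTL1 libraries. The F4MKO+FSTL1 libraries were below all Flox libraries and overlapped with F4MKO, whose replicate 2 was at 46.7. The log2 fold change was -0.69 compared with F4MKO (95% interval -1.27 to -0.12, adjusted p = 0.0820 by edgeR with Benjamini-Hochberg adjustment) and -0.90 compared with Flox (95% interval -1.48 to -0.33, adjusted p = 0.173). Neither passed. DESeq2 called both (adjusted p = 0.0401 and 0.0280), as did edgeR without a filter on low counts (adjusted p = 0.0117 and 0.00822). Leaving out F4MKO replicate 2 or F4MKO+FSTL1 replicate 3 called it compared with F4MKO, with log2 fold changes of -0.90 (adjusted p = 0.0305) and -0.91 (adjusted p = 0.0432), as did scaling to library totals (-0.89, adjusted p = 0.0283).

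Irf9, the DNA-binding subunit of ISGF3, measured 37.5, 43.8 and 43.3 CPM in Flox, 43.9, 34.5 and 33.5 in F4MKO and 36.9, 40.6 and 37.3 in F4MKO+FSTL1 libraries. All groups overlapped. The log2 fold change of F4MKO+FSTL1 compared with F4MKO was 0.036 (95% interval -0.22 to 0.29, adjusted p = 0.853 by edgeR with Benjamini-Hochberg adjustment), and it was -0.17 with counts scaled to library totals. Stat2, which joins Irf9 in ISGF3, measured 63.2 ± 8.63 CPM in F4MKO+FSTL1 and 66.0 ± 9.603 in F4MKO livers and was not called.

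Irf5, which relays Toll-like receptor signals in myeloid cells, measured 9.54, 10.5 and 14.1 CPM in Flox, 15.9, 12.1 and 12.7 in F4MKO and 10.8, 7.93 and 11.3 in F4MKO+FSTL1 libraries. The F4MKO+FSTL1 libraries were below all F4MKO libraries, and Flox overlapped with both. The log2 fold change of F4MKO+FSTL1 compared with F4MKO was -0.43 (95% interval -0.84 to -0.034, adjusted p = 0.113 by edgeR with Benjamini-Hochberg adjustment). With counts scaled to library totals it was -0.64 (adjusted p = 0.0392).

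Irf8, the factor of the monocyte and dendritic cell lineages, had the largest log2 fold change of the 8 members in F4MKO+FSTL1 compared with F4MKO. It measured 9.58, 11.9 and 13.1 CPM in Flox, 17.2, 13.4 and 14.3 in F4MKO and 8.36, 5.67 and 9.04 in F4MKO+FSTL1 libraries. No groups overlapped, with F4MKO highest, Flox between and F4MKO+FSTL1 lowest. Irf8 was 1.95-fold lower in F4MKO+FSTL1 (7.69 ± 1.78 CPM, SD, n = 3) than in F4MKO livers (14.97 ± 1.97) (log2 fold change -0.96, standard error 0.18, 95% interval -1.37 to -0.56, adjusted p = 0.00491 by edgeR with Benjamini-Hochberg adjustment). Without F4MKO+FSTL1 replicate 1 it was -1.03 (adjusted p = 0.0128). It was called under each of the 16 alternatives, from -1.17 to -0.78. Compared with Flox, the log2 fold change was 0.38 in F4MKO (95% interval -0.011 to 0.77, adjusted p = 0.310) and -0.58 in F4MKO+FSTL1 (95% interval -0.99 to -0.18, adjusted p = 0.201), neither past the threshold. Irf8 lies at chr8:120736358-120756694, inside the longer Gm20388 of the GENCODE annotation, which has no row in the table used here.

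Counted by overlap of the libraries, 2 of 8 members had groups that did not overlap in F4MKO compared with Flox (background 21.8%), Irf8 higher (background 11.7%) and Irf3 lower (background 10%). In F4MKO+FSTL1 compared with F4MKO there were 4 (background 39%), with Irf2 and Irf3 higher (background 18%) and Irf5 and Irf8 lower (background 21.1%). In F4MKO+FSTL1 compared with Flox there were also 4 (background 18.2%), with Irf2 higher (background 7.44%) and Irf1, Irf7 and Irf8 lower (background 10.7%).

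Irf4 is the gene deleted in the muscle of both F4MKO groups, and its liver reads do not check that deletion. It had 131, 132 and 101 reads in Flox, 120, 128 and 130 in F4MKO and 10, 92 and 116 in F4MKO+FSTL1 libraries, or 4.24 to 6.06 CPM in 8 libraries and 0.467 CPM in replicate 1 of F4MKO+FSTL1. In CPM that library was 9.08 times below the lowest of the others, with an exact Poisson 95% interval of 4.80 to 18.4 for its 10 reads, which covers counting error only. The other F4MKO+FSTL1 libraries measured 4.42 and 6.06 CPM, against 4.24 to 5.84 over Flox and F4MKO. A search made after this value was seen asked which genes fell this far. Of 10545 genes above 2 CPM in the other 8 libraries, Irf4 alone was under 25% of their lowest value in this library, at 11.01%, and the next gene, Cyp4a14, was at 42.1%. In the other libraries 0, 1 or 12 genes were that low, and the 12 were in F4MKO replicate 2. The nearest protein-coding genes on either side of Irf4 (chr13:30749226-30766976) did not share the drop, with 486 reads on Dusp22 and 224 on Exoc2 in this library, against 446 to 611 and 176 to 324 in the others.

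**Figure D3:**
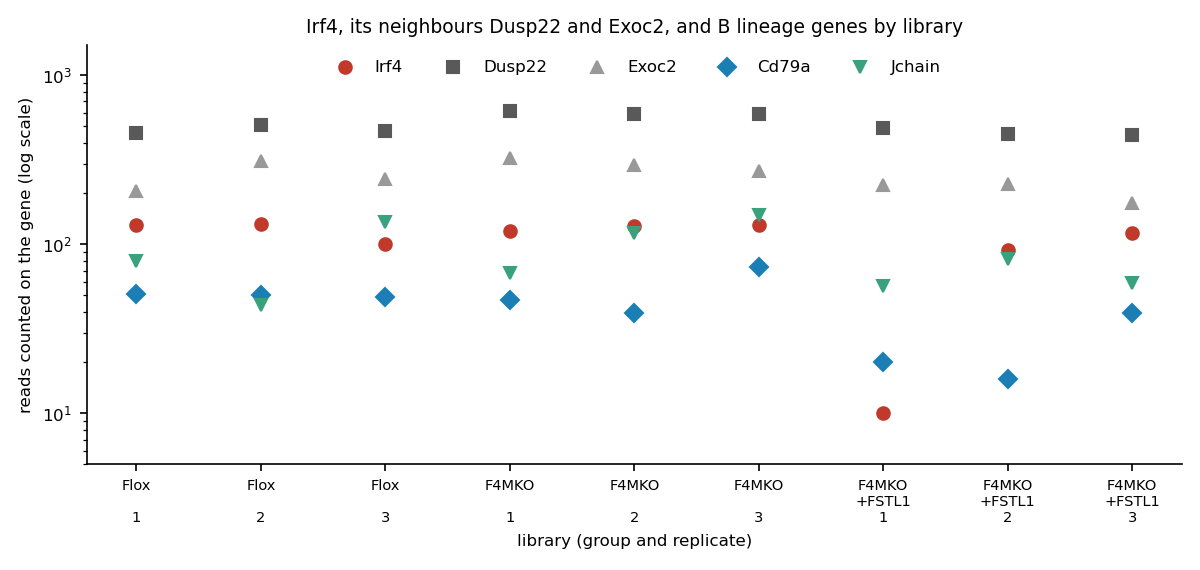
Reads (y axis, log scale) on Irf4, on its neighbours Dusp22 and Exoc2 and on the B lineage genes Cd79a and Jchain in each of the 9 libraries (x axis). Irf4 drops to 10 reads in F4MKO+FSTL1 replicate 1, where Dusp22 and Exoc2 stay within the range of the other libraries and Cd79a is near its count in replicate 2.

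Lymphocyte genes, which come with Irf4 in plasma cells, B cells and T cells, were low in the same library but not as far. The summed level of 11 T and NK cell markers was 3.92 CPM there, the lowest of the 9 libraries, against 5.33 and 11.8 CPM in the other F4MKO+FSTL1 libraries, 6.66 to 9.36 in Flox and 7.08 to 11.7 in F4MKO. The summed B and plasma cell markers without Sdc1, a gene that hepatocytes also express, ran from 11.5 to 14.2 CPM in the 3 F4MKO+FSTL1 libraries, below Flox (14.5 to 21.8) and F4MKO (15.7 to 22.8). Cd79a, part of the B cell receptor, had 20, 16 and 39 reads in the 3 F4MKO+FSTL1 libraries, and Jchain, made by plasma cells, had 57, 82 and 59. Their part in the Irf4 value was not tested. With all libraries the log2 fold change of Irf4 in F4MKO+FSTL1 compared with F4MKO was -0.44 (95% interval -1.59 to 0.71, adjusted p = 0.584 by edgeR with Benjamini-Hochberg adjustment), and without replicate 1 of F4MKO+FSTL1 it was 0.091 (adjusted p = 0.792). The sign of the fitted change thus rested on that library. Compared with Flox, F4MKO livers had a log2 fold change of -0.091 (95% interval -1.20 to 1.02).

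In whole liver, fewer cells of a type and less RNA per cell cannot be told apart. Several members moved with macrophage markers, and some of these with dendritic cell markers too. The 16 macrophage and Kupffer cell markers, with the defining genes Adgre1 and Csf1r detected in every library, summed to 987 to 1521 CPM in Flox, 1291 to 1352 in F4MKO and 580 to 925 in F4MKO+FSTL1 libraries. Of these markers 12 fell and 0 rose in F4MKO+FSTL1 compared with F4MKO (median log2 fold change -0.95), where 11.2% of all tested genes fell and 3.21% rose. The smallest p belonged to Adgre1, the F4/80 antigen (log2 fold change -0.96), the lysozyme gene Lyz2 (-1.19) and Cd68, a lysosomal protein of macrophages (-1.10). The 4 not called were Vsig4 (-0.41), Clec4f (-0.29), Marco (0.080) and Timd4 (0.51). In F4MKO compared with Flox 0 of the markers were called by edgeR. There 4 of the 16, Cx3cr1 (1.39), Ccr2 (1.05), Itgam (0.76) and Mpeg1 (0.50), did not overlap and were higher (background 11.7%). Marco (-1.41) and Timd4 (-1.26) did not overlap and were lower (background 10%). The sum thus mixes genes that moved in opposite directions. Over the 9 libraries, which share the 3 groups, Pearson's r of log2 CPM with the log2 summed markers was 0.91 for Irf8, 0.80 for Irf5, 0.80 for Irf7 and -0.78 for Irf2. For deviations from group means, r was 0.68, 0.77, 0.65 and 0.14. Per 1000 CPM of summed macrophage markers, Irf8 measured 8.61 to 12.03 CPM in Flox, 10.02 to 12.7 in F4MKO and 9.77 to 12.7 in F4MKO+FSTL1 libraries, and the groups overlapped. On the same scale Irf7 overlapped too (54.2 to 75.0, 34.9 to 69.1 and 57.3 to 58.2), whereas Irf5 was higher in F4MKO+FSTL1 (12.3 to 16.5) than in Flox (9.05 to 10.7) and F4MKO (9.01 to 11.7). These ratios were chosen after the values were seen and carry no test.

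**Figure D4:**
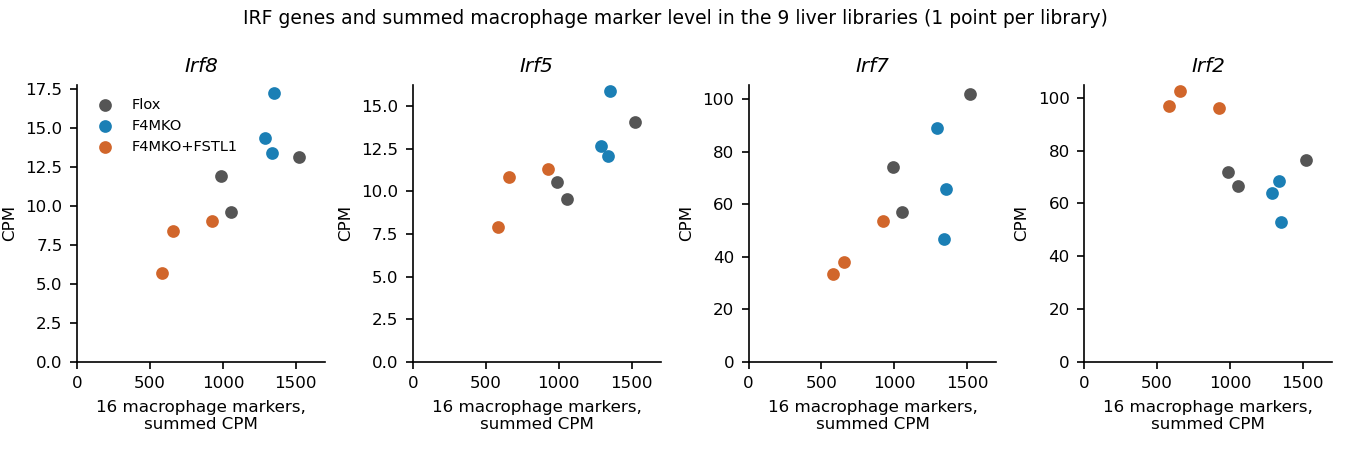
CPM of Irf8, Irf5, Irf7 and Irf2 (y axes) against the summed CPM of 16 macrophage markers (x axes), 1 point per library. Irf8 rises with the markers over the 9 libraries (r = 0.91), and the 3 F4MKO+FSTL1 libraries hold the lowest marker sums (580 to 925 CPM).

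Genes of dendritic cells, which need Irf8 or Irf4 to develop, were scarce. Their 11 markers summed to 20.1 to 22.1 CPM in Flox, 25.1 to 40.5 in F4MKO and 14.9 to 19.4 in F4MKO+FSTL1 libraries. Pearson's r with this sum over the 9 libraries was 0.85 for Irf8, 0.75 for Irf5, 0.37 for Irf7 and -0.86 for Irf2. For deviations from group means it was 0.44, 0.51, -0.16 and -0.44. The link of Irf8, Irf5 and Irf2 was thus not particular to macrophage markers. Of the 10 dendritic cell markers tested, 4 fell in F4MKO+FSTL1 compared with F4MKO (background 11.2%). Among them were Itgax, an integrin of dendritic cells and macrophages (log2 fold change -2.12), Flt3, the receptor that sustains dendritic progenitors (-1.82), and Siglech, a lectin of plasmacytoid dendritic cells (-1.82). The count was 2 without F4MKO+FSTL1 replicate 2. Clec9a and Xcr1, defining genes of the conventional dendritic cells that need Irf8, were detected in every library at 68 to 157 and 8 to 44 reads and were not called. Of 9 tested B and plasma cell markers 1 fell (background 11.2%), Cd22, a B cell receptor inhibitor (log2 fold change -1.24). Sdc1 (-0.36) and Cd79a (-0.74) were next by p and were not called. Of 9 T and NK cell markers 0 were called by edgeR, and 3 had an unadjusted p under 0.05 (background 35.3%), with 0 called by DESeq2 and 1 by edgeR without a filter on low counts. The smallest p were those of the NK cell receptor gene Klrb1c (log2 fold change -1.45), the T cell receptor component Cd3d (-0.95) and Cd8b1 (-1.06). Of 10 hepatocyte markers 2 rose (background 3.21%), Serpina1c, a protease inhibitor (1.21), and Cebpa, a hepatocyte transcription factor (0.66), and Apoa1, next by p, was not called (0.50).

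Around the family, 5 lists of genes were followed from receptors to targets, and all but 1 of the genes called in them in F4MKO+FSTL1 compared with F4MKO fell. Of all tested genes 11.2% fell and 3.21% rose in this comparison, and 22.3% of the called genes were higher. The lists were chosen with earlier results of these data known, and their counts carry no test. In F4MKO+FSTL1 compared with F4MKO, 3 of 12 upstream receptors and kinases fell and 0 rose (median log2 fold change -0.20). These were Ifngr1, the ligand-binding chain of the interferon-gamma receptor (-0.71, adjusted p = 0.00154 by edgeR with Benjamini-Hochberg adjustment), Il10rb, a chain shared by the IL-10 and interferon-lambda receptors (-0.67), and Ifnlr1, the other chain of the interferon-lambda receptor (-2.43), which was near its detection limit (0.143 ± 0.121 against 0.811 ± 0.288 CPM). The type I receptor chains Ifnar1 and Ifnar2 and the kinases Jak1, Jak2 and Tyk2 were not called.

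Among the sensors and adaptors that activate Irf3, Irf5 and Irf7, 9 of 23 fell and 0 rose (median -0.36), and 5 without F4MKO+FSTL1 replicate 2. The smallest p belonged to Tlr9, the endosomal receptor for unmethylated DNA (log2 fold change -2.12, adjusted p = 0.00329 by edgeR with Benjamini-Hochberg adjustment), Cd14, the co-receptor for lipopolysaccharide (-1.52, adjusted p = 0.00346), and the endosomal receptor Tlr8 (-1.24, adjusted p = 0.00501). Tlr2, Tlr4, Tlr7, Ticam2, Tmem173, which encodes the adaptor STING, and Ikbke, a kinase of Irf3 and Irf7, made up the rest. Tlr9 was low, at 0.225 ± 0.0899 CPM in F4MKO+FSTL1 and 1.003 ± 0.149 in F4MKO livers. Ticam2 was low too (0.298 ± 0.189 against 0.904 ± 0.295 CPM). Tbk1, the main kinase of Irf3, measured 23.4 ± 0.178 CPM in F4MKO+FSTL1 and 25.9 ± 1.44 in F4MKO livers and was not called.

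Of 14 partners and regulators, 3 fell and 0 rose (median -0.32), and 1 without F4MKO+FSTL1 replicate 1. Spi1, the Ets factor that pairs with Irf4 and Irf8 on composite elements, measured 11.5 ± 2.73 CPM in F4MKO+FSTL1 and 22.1 ± 2.64 in F4MKO livers (log2 fold change -0.95, adjusted p = 0.00552 by edgeR with Benjamini-Hochberg adjustment). Its relative Spib (-1.43) and the lymphoid factor Ikzf1 (-0.92) were the others. Spib was low, at 0.379 ± 0.127 against 1.02 ± 0.242 CPM.

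Among targets, 10 of 23 tested genes driven by ISGF3 and Irf7 fell and 0 rose (median -0.66). Oas1a, a synthase whose product activates RNA decay (log2 fold change -1.19, adjusted p = 0.00427 by edgeR with Benjamini-Hochberg adjustment), Ifit2, which restrains viral translation (-0.98, adjusted p = 0.00430), and Zbp1, a nucleic acid sensor (-1.33, adjusted p = 0.00505), had the smallest p. The count was 6 without F4MKO replicate 1 and 5 without F4MKO+FSTL1 replicate 2. Of 24 targets of Irf1 and interferon-gamma, 7 fell and 1 rose (median -0.29). Ciita, the master regulator of MHC class II (-1.85, adjusted p = 0.00184), Il18bp, a decoy for IL-18 (-1.20, adjusted p = 0.00313), and the chemokine Cxcl9 (-1.21, adjusted p = 0.00372) led those that fell. The riser was Psmb9, an immunoproteasome subunit, at 6.03, 4.23 and 6.22 CPM in F4MKO+FSTL1, 1.20, 0.796 and 2.28 in F4MKO and 5.71, 8.93 and 1.20 in Flox libraries (log2 fold change 1.94, adjusted p = 0.0346), and it is named here after its value was seen. The median over all genes tested was 0.011. In the other comparisons 0 genes of these 5 lists were called by edgeR with all 9 libraries and the filter on low counts, whereas other settings called some. In F4MKO compared with Flox, 1 sensor or adaptor and 1 target of Irf1 and interferon-gamma were called without the filter, and 0 of the 5 lists by DESeq2. Of the markers, DESeq2 called 3 of macrophages, 2 of dendritic cells and 1 of hepatocytes in this comparison. Without the filter 4, 2 and 1 were called. Over all genes DESeq2 called 338, and edgeR without the filter 478. In F4MKO+FSTL1 compared with Flox, 7 ISGF3 and Irf7 targets and 6 targets of Irf1 and interferon-gamma were called by DESeq2, and 8 and 6 by edgeR without the filter. Macrophage markers were called there too, 6 by DESeq2 and 10 without the filter, and 1 dendritic cell marker without it. Over all genes these settings called 284 and 379. Without F4MKO+FSTL1 replicate 3, edgeR called 1 sensor or adaptor, 2 targets of Irf1 and interferon-gamma and 4 macrophage markers in that comparison. Over all genes it then called 101. In F4MKO compared with Flox the medians of the 5 lists ran from -0.027 to 0.21, and in F4MKO+FSTL1 compared with Flox from -0.63 to -0.15. In the latter, 13 of the 23 ISGF3 and Irf7 targets had an unadjusted p under 0.05 (background 13.4%).

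**Figure D5:**
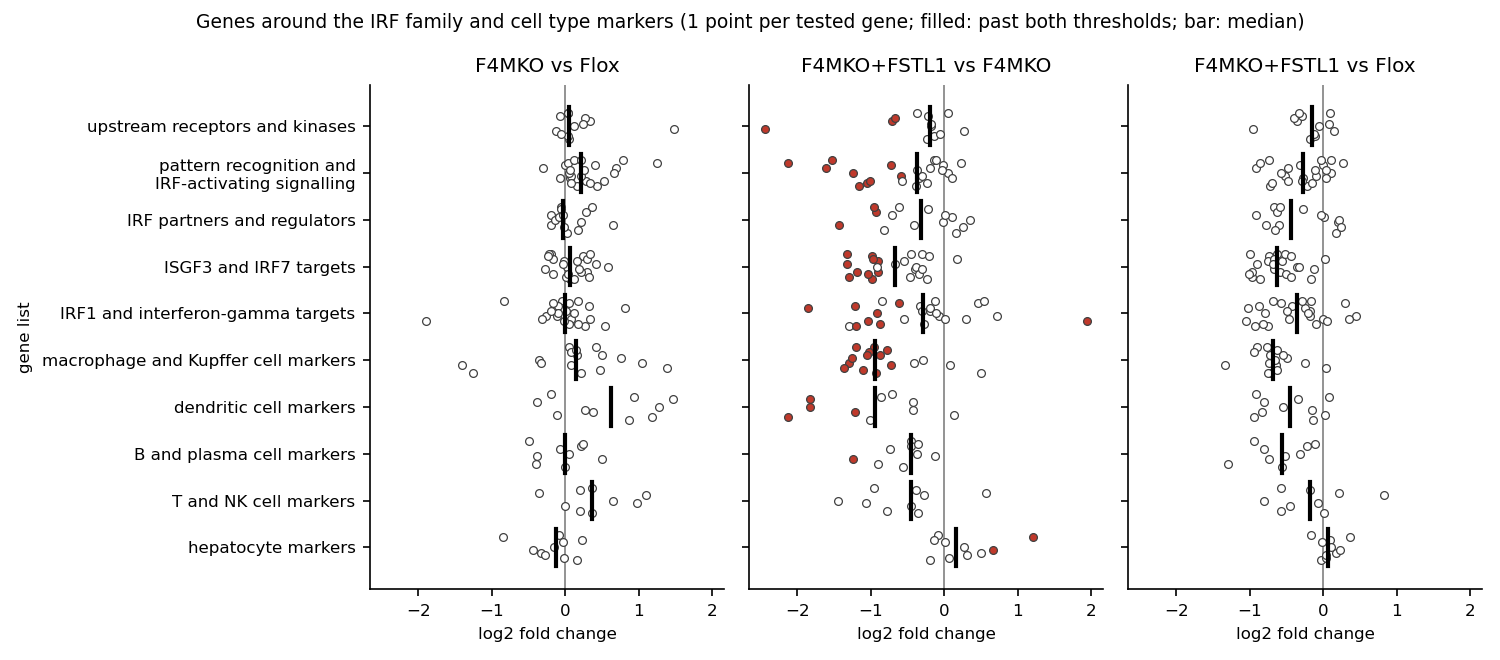
Log2 fold changes (x axes) of the tested genes of 5 lists around the IRF family and of 5 cell type marker lists (y axis) in the 3 comparisons, 1 point per gene, filled where called, with a bar at each list's median. By edgeR with all 9 libraries, filled points appear in F4MKO+FSTL1 compared with F4MKO alone, nearly all left of 0, and the macrophage markers have a median of -0.95.

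Genes whose log2 CPM over the 9 libraries was most like that of a member are given as a description, since the libraries share 3 groups. For Irf8 the closest were Lair1, an inhibitory receptor of leukocytes, Selplg, the selectin ligand of leukocytes, and Fam129a, each at r = 0.99, and 538 genes had r above 0.9. For Irf2 they were Igfbp4, an IGF-binding protein (0.99), Insr, the insulin receptor (0.98), and Hectd3 (0.98), with 174 genes above 0.9. For Irf3 they were Aar2 (0.98), Mea1 (0.98) and Txndc15 (0.97), with 220 above 0.9. For Irf7 they were Trafd1 (0.96), Slc9a9 (0.94) and Shisa5 (0.93). For Irf5 they were Gm36161 (0.96), Klrb1b (0.95) and Gdpd5 (0.95). The closest to Irf1 were Mfsd7a (0.97), Gm35498 (0.96) and Eva1b (0.95), those to Irf4 were Gm29886 (0.96), Spc25 (0.94) and Slc39a5 (0.94), and those to Irf9 were Snx30 (0.92), Tbc1d2b (0.91) and Dxo (0.91), with 3 genes above 0.9. Between members, Irf5 and Irf8 were most alike (r = 0.89, and 0.94 for deviations from group means), and Irf2 and Irf8 ran most opposite (r = -0.84, and -0.093 for deviations).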

How the data were processed

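The authors sequenced 150 bp paired-end reads of whole-liver RNA, trimmed them with Trim Galore 0.6.7, aligned them to mm10 with HISAT2 2.2.1 and counted them on genes with featureCounts 2.0.1, per the submitters' processing notes and methods. They deposited these counts as whole numbers per gene and library, with no normalization. The annotation, the strand setting and the handling of shared reads are not given in the sources used here, so reads in parts of Irf1, Irf2, Irf3, Irf5, Irf7, Irf8 and Irf9 that overlap other genes cannot be assigned with certainty.

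Counts of all 9 libraries were fitted together in R 4.3.3 with edgeR 4.0.16 (filterByExpr with a minimum count of 10 and a minimum total of 15, TMM, quasi-likelihood test, a mean per group, Benjamini-Hochberg adjustment over 14379 genes). CPM are mean ± SD of 3 mice, and log2 CPM values add a prior count of 2. No pair of replicates agreed within sampling noise. Named genes are the 8 members, the 3 genes most correlated with each, and the 3 with the smallest p of each list in F4MKO+FSTL1 compared with F4MKO. Other genes named (further called genes, pathway partners, defining and other markers, overlapping or neighbouring genes, Psmb9, Cyp4a14 and Fstl1) were chosen after their values were seen. The members and the lists were chosen with earlier results of these data known. The alternatives were DESeq2 1.42.0, its size factors in edgeR, no filter, only the 6 libraries compared, a replicate block, no fold threshold, scaling by totals and leaving out each library.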

Additional observations from a re-analysis of the deposited data

How the results depend on the processing

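Of the 8 members, Irf8 kept its direction and its call in F4MKO+FSTL1 compared with F4MKO under each of the 16 alternatives. The count of called members there was 1 to 3 with single libraries left out, and 3 with DESeq2, no filter, a replicate block, no fold threshold and scaling by totals. In F4MKO+FSTL1 compared with Flox the count was 1, Irf7, with DESeq2 and without a filter, and 0 otherwise. In F4MKO compared with Flox it was 0 throughout. Directions turned for Irf1, Irf3, Irf4, Irf7 and Irf9. With scaling by totals, which moved the median of all genes by 0.12, -0.19 and -0.079 in F4MKO compared with Flox, F4MKO+FSTL1 compared with F4MKO and F4MKO+FSTL1 compared with Flox, the log2 fold changes became 0.073 for Irf1 and 0.019 for Irf4 (F4MKO compared with Flox), -0.17 for Irf9 (F4MKO+FSTL1 compared with F4MKO) and -0.031 for Irf3 (F4MKO+FSTL1 compared with Flox). With single libraries left out they ran in F4MKO compared with Flox from -0.10 to 0.033 for Irf1, -0.19 to 0.0092 for Irf4 and -0.47 to 0.035 for Irf7, in F4MKO+FSTL1 compared with F4MKO from -1.01 to 0.091 for Irf4 and -0.034 to 0.17 for Irf9, and in F4MKO+FSTL1 compared with Flox from -0.028 to 0.095 for Irf3. The cause was not tested.

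Replicate numbers are shared by the groups. The deviations of same-numbered libraries correlated from 0.042 to 0.17, 0.092 to 0.30 and -0.099 to 0.21 in the 3 comparisons. Not every pair was above 0.1, so the numbers were not taken to pair the mice. As a hint from the data and not the design, 5 of 9 libraries correlated best with their own number. With the replicate block, Irf7 was called in F4MKO+FSTL1 compared with F4MKO (log2 fold change -0.68, adjusted p = 0.00857 by edgeR), and the counts of called members were 0, 3 and 0. Over all genes, the 39 calls of F4MKO compared with Flox became 338 with DESeq2, 478 without a filter, 11 with 6 libraries, 134 with the block, 59 with scaling by totals and 0 to 100 with single libraries left out. The 2070 calls of F4MKO+FSTL1 compared with F4MKO became 1295 to 2216 with single libraries left out. The 1 call of F4MKO+FSTL1 compared with Flox became 284 with DESeq2, 379 without a filter, 0 with 6 libraries, 15 with the block, 2 with DESeq2's size factors or scaling by totals and 0 to 101 with single libraries left out. Scaling by totals moved the share of higher genes among the calls from 74.4% to 89.8% in F4MKO compared with Flox and from 22.3% to 8.61% in F4MKO+FSTL1 compared with F4MKO. With 3 mice a group, the interval of Irf4 spans both directions, and at 10 to 132 reads its counts limit what can be read from it.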

Other observations

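Liver reads on Fstl1 numbered 138, 186 and 147 in Flox, 456, 234 and 284 in F4MKO and 114, 67 and 83 in F4MKO+FSTL1 libraries. In CPM these were 6.15, 7.62 and 6.52, then 16.1, 9.80 and 11.3, then 5.33, 3.22 and 4.33. The groups did not overlap (background 21.8% in F4MKO compared with Flox, 39% in F4MKO+FSTL1 compared with F4MKO, 18.2% in F4MKO+FSTL1 compared with Flox). No test is given for it here. By qPCR the study reported no change of liver Fstl1 mRNA after the AAV injection. The ratio of Irf7 to Irf3 reads within a library, chosen after the values were seen, was 0.677 to 1.18 in Flox, 0.746 to 1.32 in F4MKO and 0.381 to 0.647 in F4MKO+FSTL1 libraries. Its two-sided exact permutation test gave p = 0.1 for F4MKO+FSTL1 against F4MKO and against Flox, the smallest that 3 against 3 can give (0.15 after Benjamini-Hochberg adjustment over 6 tests).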
